A study of Homo sapiens with 14 samples.

Results

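Replacement histone variants are histone genes that are transcribed outside S phase as well as within it, and 9 of them were followed by name: H1-10, H2AX, H2AZ1, H2AZ2, H2AJ, MACROH2A1, MACROH2A2, H3-3A and H3-3B. They are 9 of the 54628 gene symbols counted in each of 14 RNA-seq libraries of IMR90, a line of human lung fibroblasts. All 9 passed the filter on low counts, which kept 19126 genes. The WT libraries (2) came from untreated cells, and siHMGB2 (2) from untreated cells in which siRNA was directed at HMGB2, a DNA-bending chromatin protein. In the other 10 libraries senescence, a lasting exit from the cell cycle, had been induced with inflachromene (ICM), a small molecule that binds HMGB1 and HMGB2, at 10 µM for up to 6 days. Of these, ICM (4) carried no knockdown in the labels, and siSRRM2 (2), siBANF1 (2) and siCTCF (2) are labelled as ICM treatment with siRNA against SRRM2 (a nuclear speckle protein), BANF1 (a chromatin protein of the nuclear envelope) or CTCF (an organiser of chromatin loops). The labels siSRRM2 and siBANF1 are in doubt from the levels of their targets, given further on. All libraries share the fibroblast line, grown from isolates I79 and I83. The labels do not say which isolate went into which library, whether WT and ICM cells received a control siRNA, or whether replicates were separate cultures, so the p-values measure only the spread between these samples. ICM 3, ICM 4 and both siCTCF libraries are labelled in another form than the other 10, with cell line entries IMR91 to IMR94, and were kept apart as a second ICM set. No untreated library carries that form, so set and treatment cannot be told apart in ICM 3-4 against WT.

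Nucleosomes are built mostly from histones made in S phase by the replication-dependent genes, whose mRNAs end in a stem-loop instead of a poly(A) tail. Replacement variants are deposited without DNA synthesis and form much of the histone supply of cells that have stopped dividing. H3.3 is laid down by the HIRA complex at active genes and by DAXX with ATRX at repeats, H2A.Z is exchanged at promoters and enhancers, H2AX is phosphorylated beside DNA breaks, and macroH2A marks the senescence-associated heterochromatin foci of fibroblasts. H2AJ is known for gathering in senescent fibroblasts, and H1-10 is a linker histone that binds the DNA between nucleosomes.

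Some stretches of these genes are shown because they set the members apart from each other or from the replication-dependent genes. H3-3A and H3-3B encode the same H3.3 protein in different codons, and their coding sequences differed at 88 of 411 bases (78.6% identical). H3-3A shared 76.9% and H3-3B 78.3% of bases with H3C1, a replication-dependent H3 gene. Codons 84 to 93, not counting the start codon, are printed here from the GENCODE v29 transcripts, with codons 87 to 90 in capitals. In that stretch the H3.3 protein differs from its replication-dependent counterparts, though not at every codon.
H3-3A: ttccagagcGCAGCTATCGGTgctttgcag
H3-3B: tttcagagcGCAGCCATCGGTgcgctgcag
H3C1: ttccagagcTCCGCTGTGATGgctctgcag
The last 30 coding bases, stop codon included, are shown for H2AX, with the codons of its C-terminal phosphorylation motif in capitals, and for H2AJ, another H2A whose tail ends differently.
H2AX: aaggccacccaggccTCCCAGGAGTACtaa
H2AJ: acggagagtcagaagacgaagagcaaatga
Of the 9 members, 1 held the letters of the histone stem-loop (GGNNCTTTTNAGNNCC) in the 3′ UTR of a full-length coding transcript. That gene was H2AX, with ggcccttttaagggcc. The motif was found in 44 of 19669 protein-coding genes (0.224%) and in 27 of 62 replication-dependent histone genes (43.5%). Since the search missed most of the latter, its absence in the other members does not show that they lack a stem-loop. H2AZ1 and H2AZ2, which encode nearly the same H2A.Z protein, differed at 76 of 387 coding bases (80.4% identical).

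Both H3.3 genes and H2AX are further shown by their RefSeq promoters (build GRCh38.p14, windows of 300 bases that lie mostly upstream of a start), because the H3.3 pair parted in the counts and H2AX had the widest spread after MACROH2A2. Capitals mark CCAAT (a binding site of NF-Y), the letters TATAAA of a TATA box and TTTGAA (the core of a cell cycle element called CHR) on either strand, so that CCAAT also appears as ATTGG and TTTGAA as TTCAAA. RefSeq lists 4 starts for H3-3A, and the one nearest to a GENCODE start matched to RefSeq is printed.
H3-3A, chr1:226062466-226062765, plus strand: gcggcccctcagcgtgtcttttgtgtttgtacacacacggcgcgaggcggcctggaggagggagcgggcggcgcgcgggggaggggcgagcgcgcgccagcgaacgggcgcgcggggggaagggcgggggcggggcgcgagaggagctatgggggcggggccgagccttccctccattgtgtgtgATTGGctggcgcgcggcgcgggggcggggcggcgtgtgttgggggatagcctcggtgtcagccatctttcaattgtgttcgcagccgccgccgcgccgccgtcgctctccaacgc
H3-3B, chr17:75779730-75780029, minus strand: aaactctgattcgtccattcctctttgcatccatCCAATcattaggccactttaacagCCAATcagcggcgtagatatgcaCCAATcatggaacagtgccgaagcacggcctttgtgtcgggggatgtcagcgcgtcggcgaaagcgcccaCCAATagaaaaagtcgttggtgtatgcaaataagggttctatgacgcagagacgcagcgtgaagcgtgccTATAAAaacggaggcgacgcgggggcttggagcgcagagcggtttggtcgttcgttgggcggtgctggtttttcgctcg
H2AX, chr11:119095416-119095715, minus strand: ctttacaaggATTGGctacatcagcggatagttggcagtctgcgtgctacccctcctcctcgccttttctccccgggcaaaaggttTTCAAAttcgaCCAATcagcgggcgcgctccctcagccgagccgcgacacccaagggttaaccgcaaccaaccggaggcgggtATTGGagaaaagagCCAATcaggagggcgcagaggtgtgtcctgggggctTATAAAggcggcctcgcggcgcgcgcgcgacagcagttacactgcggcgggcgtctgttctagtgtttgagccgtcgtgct
CCAAT stood 4 times in H3-3B, 4 times in H2AX and once in this H3-3A window, and it was found in 34.6% of 35116 promoters of the same length. TATAAA was in the H3-3B and H2AX windows and not in that of H3-3A (11.5% of all promoters). TTTGAA was in the H2AX window (15.2% of all), as it was in that of H2AZ1, and in neither H3.3 window. TTCCCGC, the letters of an E2F site, was searched on both strands as well (6.55% of all) and was in none of the 3 windows printed.

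Levels are given as CPM, the reads of a gene scaled to a fixed total of the reads assigned to genes in its library. Gene counts were 22336161 to 58257456 a library. The targeted genes were looked at first. WT held 27.7 and 28.0 CPM of HMGB2, against 3.18 and 3.52 in siHMGB2. ICM 1-2 held 238 and 112 CPM of SRRM2, against 76.1 and 76.4 in the libraries labelled siSRRM2 and 59.0 and 17.01 in those labelled siBANF1. Of BANF1, ICM 1-2 held 13.5 and 32.7 CPM and the libraries labelled siBANF1 held 16.96 and 36.7, while those labelled siSRRM2 held 34.2 and 33.3. BANF1 was thus not lower in either group, and SRRM2 was lowest in the libraries labelled siBANF1. The deposited files of these 2 groups are each named for the other knockdown. Which knockdown each group holds is uncertain, and the groups here follow the labels. ICM 3-4 held 94.9 and 91.9 CPM of CTCF, against 71.5 and 23.0 in siCTCF. The share of small RNA genes was 3.19% to 6.06% in the first ICM set with its knockdowns (siSRRM2, siBANF1) and at most 0.0083% elsewhere. Reads without a unique alignment were 14.5% to 20.7% of a library there. They were 7.15% to 7.67% in WT and siHMGB2 and 8.17% to 8.51% in ICM 3-4 and siCTCF. Reads ambiguous between genes were 2.67% to 9.53%, 1.58% to 1.72% and 1.81% to 1.91% in the same order. Mitochondrial mRNA held 3.54% and 3.11% of gene counts in WT, 0.454% and 0.0677% in ICM 1-2, and 0.241% and 0.252% in ICM 3-4. The 10 fibroblast markers summed to 22401 to 41137 CPM in WT and siHMGB2, 4301 to 16765 in the first-set ICM libraries and 1825 to 4374 in the second. Against WT, 1 of 10 fell in ICM 1-2 (6.87% of all genes) and 7 of 10 in ICM 3-4 (16% of all genes). CDH1, PTPRC, PECAM1 and EPCAM, markers of other lung cell types, were at 0 to 0.680 CPM, while the macrophage marker CD68 was at 39.1 to 104 CPM. The 10 markers of other cell types summed to 39.6 to 49.4 CPM in WT and siHMGB2, 56.5 to 88.98 in the first ICM set with its knockdowns and 88.4 to 104 in the second with siCTCF. The part of these shifts in the results was not tested.

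In untreated fibroblasts the order of the members per length depended on the gene length used. Divided by the merged exons of GENCODE v29 (RPKM), H1-10 was at 98.2 ± 21.2 (SD, n = 2), H3-3A at 67.5 ± 4.89, H3-3B at 65.5 ± 4.34, H2AZ1 at 53.8 ± 6.24, H2AX at 33.8 ± 1.99, H2AZ2 at 23.85 ± 0.569, MACROH2A2 at 17.3 ± 0.640, MACROH2A1 at 10.1 ± 0.0099 and H2AJ at 5.49 ± 0.170 RPKM. Merged exons take in rare transcripts, which lowers the value: those of H3-3B add up to 6134 bases, more than its RefSeq span of 3346, and those of MACROH2A1 to 17730. Divided by the longest protein-coding transcript instead, a length chosen after the data were seen, H3-3B was at 148.5 ± 9.85 RPKM, H2AZ1 at 126.6 ± 14.7, H3-3A at 114 ± 8.25, H1-10 at 98.2 ± 21.2, MACROH2A1 at 64.4 ± 0.0629, H2AX at 33.8 ± 1.99, H2AZ2 at 29.8 ± 0.711, H2AJ at 28.6 ± 0.885 and MACROH2A2 at 17.3 ± 0.640. By that length the ranges of mean ± SD overlapped between H3-3B and H2AZ1, H2AZ1 and H3-3A, H2AZ1 and H1-10, H3-3A and H1-10, and H2AZ2 and H2AJ. By both lengths H1-10, H2AZ1 and both H3.3 genes stood above H2AX, H2AZ2, H2AJ and MACROH2A2. The 9 genes together held 1350 and 1222 CPM in WT, 92.4% and 92.9% of all histone counts. That share was 46.5% to 47.1% in ICM 1-2 and 54.1% to 59.2% in ICM 3-4. The replication-dependent genes summed to 93.5 and 112 CPM in WT, 758 to 1736 in the first ICM set with its knockdowns, and 821 to 1050 in the second with siCTCF, while the members' sum was 1187 and 1241 CPM in ICM 3-4 and 680 and 1330 in ICM 1-2. In bulk RNA, fewer cells of a type and less RNA per cell cannot be told apart.

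**Figure D1:**
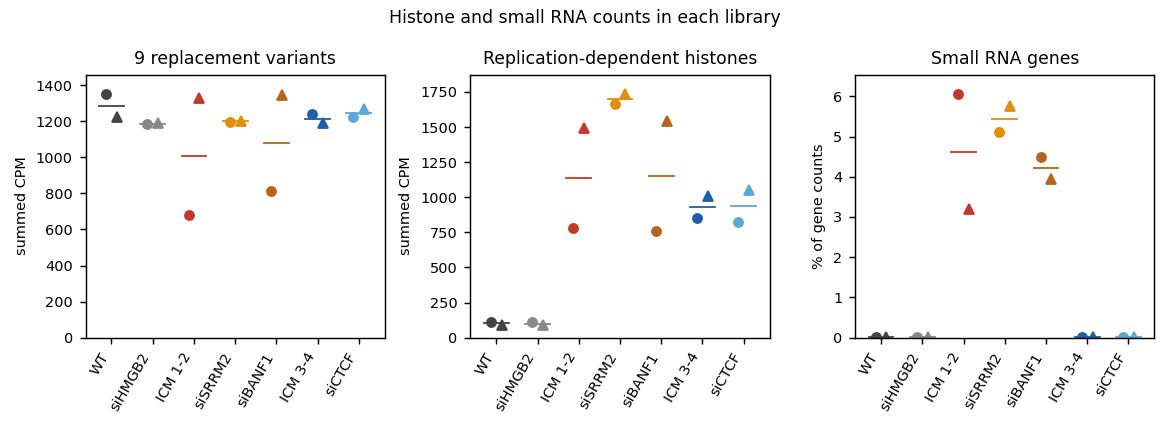
Summed CPM of the 9 replacement variants (left) and of the listed replication-dependent histones (middle), and the percentage of gene counts in small RNA genes (right), in 7 groups of 2 libraries. Circles are the lower and triangles the higher replicate number, lines are group means. The replication-dependent sum was 89.2 to 112 CPM in WT and siHMGB2 and at least 758 in every ICM-treated library, and the small RNA share was 3.19% or more in the first ICM set and its knockdowns alone.

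Against WT, ICM 1-2 had lower H3-3A and H1-10, and ICM 3-4 had lower H3-3A, H1-10 and MACROH2A2 and higher H2AJ. The test was edgeR's quasi-likelihood test on all 14 libraries with Benjamini-Hochberg adjustment over 19126 genes, called at an adjusted p under 0.05. It called 2 of 9 members in ICM 1-2 against WT, where 13.5% of all genes were called (6.63% higher, 6.87% lower). It called 4 of 9 in ICM 3-4 against WT, where 30.3% of all genes were called (14.3% higher, 16% lower). The median log2 fold change of the members was -0.57 in ICM 1-2 and -0.15 in ICM 3-4, against 0.10 and -0.02 over all genes tested. Both comparisons use the same 2 WT libraries. When ICM 1-2 and WT were fitted without the other libraries, 33 genes (0.173%) and 0 members passed.

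**Figure D2:**
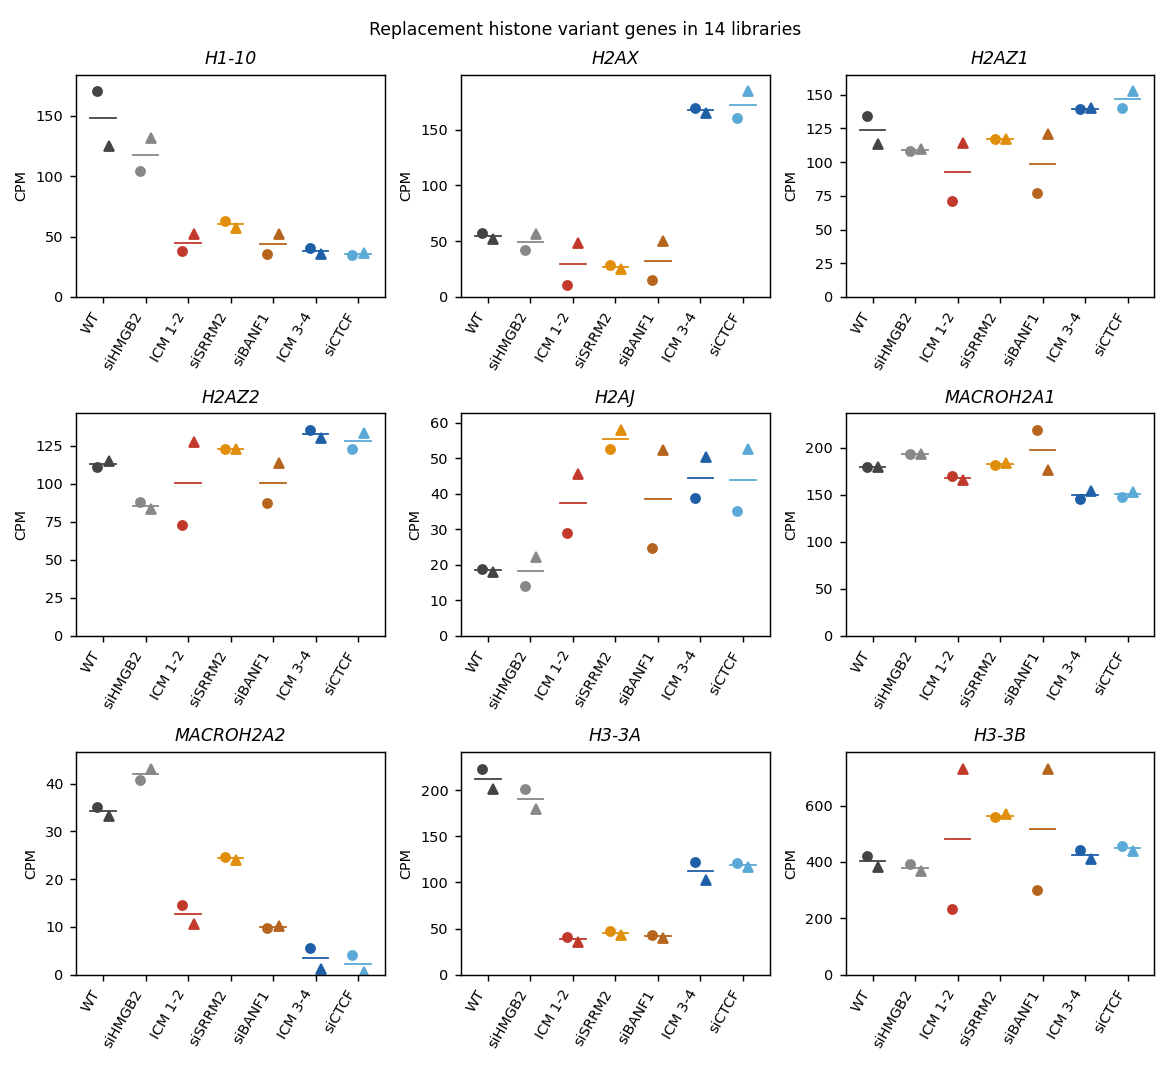
CPM of each replacement variant gene (vertical axes from 0) in 7 groups of 2 libraries. Circles are the lower and triangles the higher replicate number, lines are group means. H3-3A and H1-10 stood lower in every ICM-treated library than in WT, H2AX stood at 160 to 185 CPM in the second set alone, and H3-3B differed most between replicates of ICM 1-2 and of siBANF1.

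H3-3A (chr1:226061831-226072019, plus strand) is one of the genes for H3.3. It was at 223 and 202 CPM in WT, 40.9 and 35.5 in ICM 1-2, and 122 and 102 in ICM 3-4. Neither ICM set overlapped with WT, and the second set lay between WT and the first. Its log2 fold change was -2.60 ± 0.24 (SE, adjusted p = 0.000227, edgeR) in ICM 1-2 and -1.15 ± 0.23 (adjusted p = 0.00611, edgeR) in ICM 3-4. The difference between the sets was 1.45 ± 0.23 (adjusted p = 0.00348, edgeR). These calls were lost in 3 fits: ICM 1-2 with WT alone (adjusted p = 0.0708), ICM 3-4 against WT without ICM 4 (-0.97, adjusted p = 0.0501), and the 4 ICM libraries alone (adjusted p = 0.117, with 1.25% of all genes called). H3P6, a processed copy of H3-3A whose reads may be split with it, was lower in both sets as well, at 65.0 and 58.5 CPM in WT, 17.8 and 16.6 in ICM 1-2, and 23.9 and 19.98 in ICM 3-4. With its counts added, H3-3A was at 288 and 260.0 CPM in WT, 58.7 and 52.1 in ICM 1-2 and 146 and 122 in ICM 3-4, in the same order.

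H3-3B (chr17:75776434-75779779, minus strand) encodes the same H3.3 protein and did not follow H3-3A. It was at 421 and 383 CPM in WT, 233 and 729 in ICM 1-2, and 444 and 409 in ICM 3-4. WT lay between both first-set ICM libraries and overlapped with the second set. The log2 fold change was 0.09 ± 0.45 in ICM 1-2 (adjusted p = 0.913, edgeR) and -0.15 in ICM 3-4 (adjusted p = 0.82, edgeR). Without ICM 2 the first value was -0.85, and without ICM 1 it was 0.65. H3-3A thus made up 34.7% and 34.5% of the reads of both H3.3 genes in WT, 14.9% and 4.65% in ICM 1-2, and 21.6% and 19.99% in ICM 3-4. The summed H3.3 level was 644 and 584 CPM in WT, 274 and 765 in ICM 1-2, and 566 and 511 in ICM 3-4. In ICM 2, with the lowest H3-3A share, the sum was the highest of these 6 libraries. Of all H3 reads, the H3.3 pair held 99.3% and 99.4% in WT, 82.5% and 94.8% in ICM 1-2, and 93.8% and 88.95% in ICM 3-4. Exons of the UNK gene overlap those of H3-3B in GENCODE v29, and reads shared by both could not be separated.

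**Figure D3:**
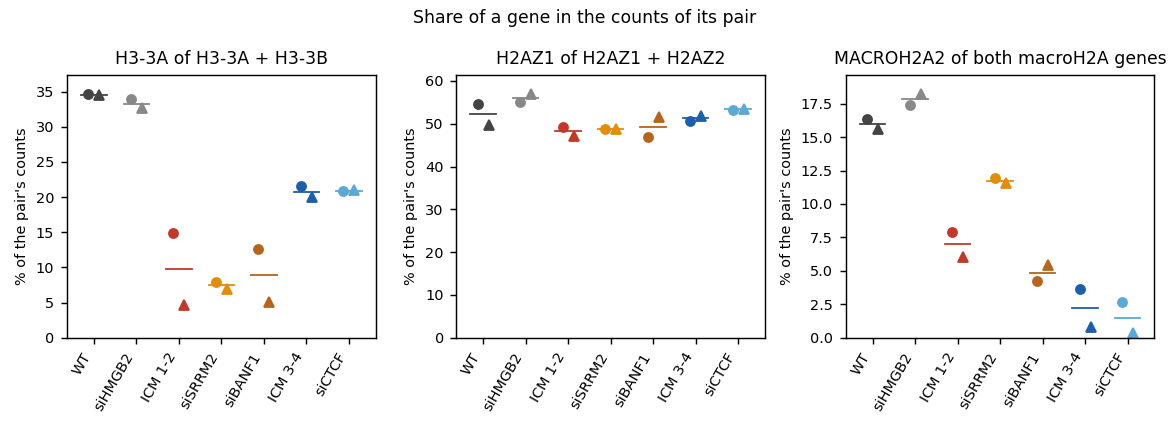
Percentage of the summed counts of 2 related genes that came from H3-3A (left), H2AZ1 (middle) and MACROH2A2 (right), in 7 groups of 2 libraries. Circles are the lower and triangles the higher replicate number, lines are group means. The H3-3A share was 34.5% and 34.7% in WT and at most 14.9% in ICM 1-2 and 21.6% in ICM 3-4, and the H2AZ1 share was 46.9% to 56.9% in all 14 libraries.

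H1-10 (chr3:129314771-129316286, minus strand), the linker histone, was at 171 and 125 CPM in WT, 37.7 and 52.0 in ICM 1-2, and 40.4 and 35.3 in ICM 3-4. Every ICM library was lower than both WT libraries. The log2 fold change was -1.87 ± 0.26 in ICM 1-2 (adjusted p = 0.00196, edgeR) and -2.21 ± 0.26 in ICM 3-4 (adjusted p = 0.000692, edgeR). The sets did not pass the test against each other (-0.34, adjusted p = 0.358, edgeR). With ICM 1-2 and WT fitted alone the adjusted p was 0.101. An antisense gene, H1-10-AS1, overlaps H1-10. Its level was 8.40 and 10.3 CPM in WT against 0.0837 to 2.36 in the 4 ICM libraries, and reads of both cannot be told apart where counting ignores strand, which no source used here states.

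MACROH2A2 (chr10:70052846-70112282, plus strand), one of the macroH2A genes, was at 35.1 and 33.3 CPM in WT, 14.6 and 10.7 in ICM 1-2, and 5.56 and 1.22 in ICM 3-4. Every ICM library was lower than WT, and the second set was lower than the first. The log2 fold change was -1.56 ± 0.75 in ICM 1-2, which did not pass (adjusted p = 0.189, edgeR), and -3.54 ± 0.82 in ICM 3-4, which did (adjusted p = 0.0113, edgeR). That value ran from -5.10 without ICM 3 to -2.79 without ICM 4, the lowest of these libraries, where the call ended (adjusted p = 0.0656, edgeR). Between the sets the change was -1.98 ± 0.78 and did not pass (adjusted p = 0.0941, edgeR). It ran from -3.54 without ICM 3 to -1.22 without ICM 4. In DESeq2 and in edgeR with no low-count filter this difference between the sets did pass. With no filter the change in ICM 1-2 against WT passed as well. AIFM2 overlaps MACROH2A2 on the opposite strand and was at 65.9 and 56.6 CPM in WT, 28.3 and 38.1 in ICM 1-2, and 138 and 94.4 in ICM 3-4, above WT in the second set, where MACROH2A2 was below it.

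MACROH2A1 (chr5:135334381-135399887, minus strand), the other macroH2A gene, had the narrowest range of the members. It was at 179.7 and 179.5 CPM in WT, 170 and 166 in ICM 1-2, and 146 and 154 in ICM 3-4. Both ICM sets lay below WT without overlap, by a log2 fold change of -0.23 (adjusted p = 0.498, edgeR) and -0.50 (adjusted p = 0.0988, edgeR), and neither passed. With ICM 3-4 and WT fitted alone it was -0.46 and passed (adjusted p = 0.0485, edgeR). MACROH2A2 held 16.3% and 15.6% of macroH2A reads in WT, 7.92% and 6.04% in ICM 1-2, and 3.67% and 0.787% in ICM 3-4.

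H2AX (chr11:119093874-119095465, minus strand), the variant phosphorylated at DNA breaks, differed between the ICM sets. It was at 56.9 and 52.4 CPM in WT, 10.8 and 48.8 in ICM 1-2, and 169 and 165 in ICM 3-4. The second set lay above WT without overlap and the first below it, with ICM 2 close to WT. Against WT the log2 fold change was -1.06 ± 0.58 in ICM 1-2 (adjusted p = 0.244, edgeR) and 1.38 ± 0.58 in ICM 3-4 (adjusted p = 0.0941, edgeR), so neither passed. The difference between the sets was 2.43 ± 0.60 and passed (adjusted p = 0.0199, edgeR). It was lost without ICM 1 (1.75, adjusted p = 0.0696), ICM 3 (2.35, adjusted p = 0.0814) or ICM 4 (2.53, adjusted p = 0.0594), and with the 4 ICM libraries alone (adjusted p = 0.103). Without ICM 2, H2AX passed against WT in the first set (-2.40, adjusted p = 0.0257). In the second set it passed in a fit of ICM 3-4 with WT alone (1.42, adjusted p = 0.000488, with 47% of all genes called) and in DESeq2 (1.41, adjusted p = 0.0424). With no low-count filter H2AX passed against WT in both sets, lower in the first and higher in the second.

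**Figure D4:**
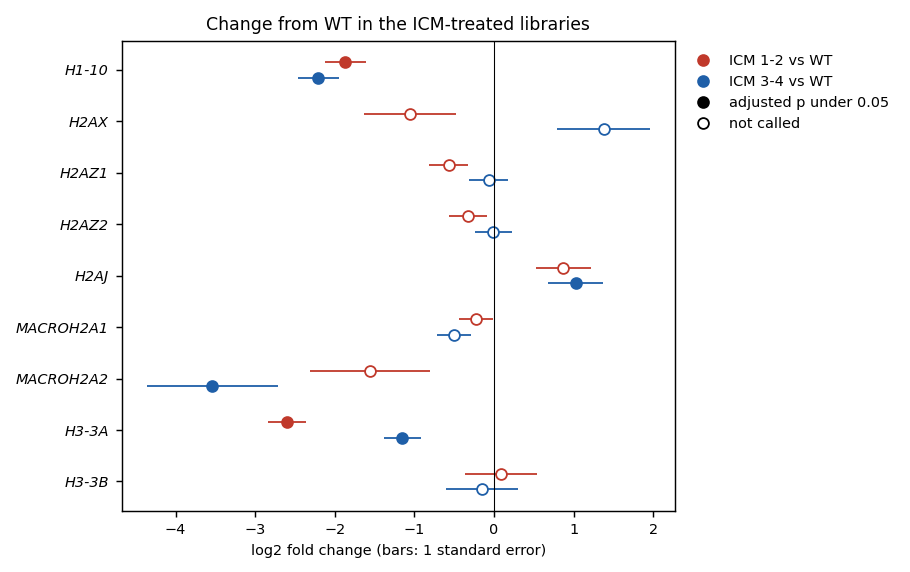
Log2 fold change from WT of each member in ICM 1-2 (red) and ICM 3-4 (blue), from edgeR. Bars are 1 standard error, and filled points had an adjusted p under 0.05. H3-3A and H1-10 are filled in both sets, MACROH2A2 and H2AJ in ICM 3-4 alone, and H2AX lies at -1.06 in one set and 1.38 in the other.

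Across the 4 ICM libraries, 2 of 9 members passed between the sets, H2AX and H3-3A, both higher in ICM 3-4, where 19.5% of all genes were called (8.53% higher, 11% lower). Without overlap between sets, 4 members were higher (29% of all genes) and 2 lower (27.1% of all genes). The members higher were H2AX, H2AZ1, H2AZ2 and H3-3A, and both macroH2A genes were lower.

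H2AJ (chr12:14774405-14778002, plus strand) was the member that stood higher than WT in both ICM sets. It was at 18.8 and 18.02 CPM in WT, 29.03 and 45.6 in ICM 1-2, and 38.9 and 50.3 in ICM 3-4. All 4 ICM libraries were above both WT libraries. The log2 fold change was 0.87 ± 0.35 in ICM 1-2 (adjusted p = 0.119, edgeR), which did not pass, and 1.03 ± 0.35 in ICM 3-4 (adjusted p = 0.0467, edgeR), which did. Without WT 1, WT 2, ICM 3 or ICM 4 in turn the adjusted p for ICM 3-4 was 0.0923 to 0.186, so the call needed all 4 libraries. The sets did not pass the test against each other (0.16, adjusted p = 0.775, edgeR).

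The H2A.Z genes passed in none of the comparisons with all libraries in the fit. H2AZ1 (chr4:99948088-99950275, minus strand) was at 134 and 114 CPM in WT, 71.1 and 114 in ICM 1-2, and 139 and 140.1 in ICM 3-4. H2AZ2 (chr7:44826889-44848126, minus strand) was at 111 and 115 CPM in WT, 73.1 and 128 in ICM 1-2, and 135.5 and 130.1 in ICM 3-4. In ICM 1-2 both overlapped with WT, and ICM 1 was the lowest of all 14 libraries for either gene. In ICM 3-4 both were above WT in CPM without overlap, yet their fitted log2 fold changes were -0.07 (adjusted p = 0.856, edgeR) and -0.01 (adjusted p = 0.993, edgeR). The fit scales libraries by TMM, a factor from the bulk of genes, and with scaling by total counts these values were 0.17 and 0.23. Within the pair, H2AZ1 held 54.6% and 49.7% of reads in WT and 46.9% to 56.9% over all libraries. Without ICM 2 both passed between the sets, H2AZ1 at 0.79 (adjusted p = 0.0448, edgeR) and H2AZ2 at 0.68 (adjusted p = 0.0432, edgeR), and with all libraries neither did (0.50, adjusted p = 0.166, and 0.32, adjusted p = 0.357, edgeR).

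Counted over the members without a test, 1 was higher (32.3% of all genes) and 5 lower (25% of all genes) than WT in ICM 1-2 with no overlap in CPM. In ICM 3-4, 4 were higher (42.6% of all genes) and 4 lower (33.3% of all genes). In the first set the higher share among members was thus below that of all genes and the lower share above it. In the second set both stood nearer to those of all genes. With 9 members this is a description only. CPM rests on total counts, by which the all-gene median log2 fold change was 0.24 in ICM 1-2 and 0.18 in ICM 3-4, against 0.10 and -0.02 by TMM. H3-3B was the member that overlapped with WT in the second set.

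HMGB2 knockdown in untreated cells left all 9 members short of the threshold. In siHMGB2 against WT edgeR called 0 of 9 members and 0 of 19126 genes (0.0%), while 908 genes had an unadjusted p under 0.05, none of them a member, and DESeq2 called 74 genes. HMGB2 itself was thus not called by edgeR, though it was at 3.18 and 3.52 CPM beside 27.7 and 28.0 in WT. A fit that misses the targeted gene cannot show that the members were unchanged. MACROH2A2 was at 40.85 and 43.1 CPM in siHMGB2 and H2AZ2 at 88.1 and 83.1, both apart from WT. These were the extremes of the members, with log2 fold changes of 0.35 and -0.35. Without overlap in CPM, 2 members were higher (19.7% of all genes), both macroH2A genes, and 3 lower (29.3% of all genes), which were H2AZ1, H2AZ2 and H3-3A. H1-10 was at 104 and 132 CPM and H3-3A at 201 and 179.5, near WT and far above all ICM-treated libraries for H3-3A (at most 122 CPM). When siHMGB2 and WT were fitted alone, 2055 genes (10.7%) were called and 0 members, with MACROH2A2 at an adjusted p of 0.103 and H2AZ2 at 0.106.

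In the libraries labelled siSRRM2, the members stood between the values of ICM 1 and ICM 2 or above them. Against ICM 1-2 edgeR called 0 of 9 members and 34 genes (0.178%), while 2168 genes and no member had an unadjusted p under 0.05, and DESeq2 called 727 genes and 0 members. MACROH2A2 was at 24.7 and 24.0 CPM, above both ICM 1-2 libraries and below WT, with the largest fitted change (0.93 ± 0.74, adjusted p = 0.673, edgeR). H2AJ was at 52.7 and 58.0 CPM, and the second of these was its highest level in the 14 libraries. H3-3A was at 47.8 and 42.8 CPM and H3-3B at 558 and 569, so the H3-3A share was 7.89% and 6.99%. H2AX, at 28.2 and 24.9 CPM, lay between ICM 1 and ICM 2 and had the lowest fitted change (-0.12). Without overlap in CPM, 6 members were higher (20.5% of all genes) and 0 lower (21% of all genes).

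In the libraries labelled siBANF1, 8 of 9 members differed between replicates 1 and 2 in the same direction as in ICM 1 and ICM 2. MACROH2A2 did not: ICM 1 and 2 held 14.6 and 10.7 CPM of it, siBANF1 1 and 2 held 9.71 and 10.2. H3-3B was at 301 and 731 CPM in siBANF1 1 and 2, beside 233 and 729 in ICM 1 and 2. H2AX was at 15.04 and 50.1 CPM beside 10.8 and 48.8, and H2AJ at 24.9 and 52.3 beside 29.03 and 45.6. For H3-3B, H2AX and H2AJ the difference between replicates of a group was wider than that between the groups. Over 9202 genes the difference between replicates 1 and 2 correlated at 0.87 between ICM and siBANF1, a description across genes that share library composition. Against ICM 1-2 edgeR called 0 of 9 members and 0 genes (0.0%), with 591 genes and no member at an unadjusted p under 0.05, and DESeq2 called 24 genes and 0 members. The fitted changes ran from -0.33 for MACROH2A2 to 0.28 for MACROH2A1 (219 and 177 CPM). These 2 genes did not overlap with ICM 1-2, MACROH2A1 higher (6.24% of all genes) and MACROH2A2 lower (8.22% of all genes).

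In siCTCF most members overlapped with ICM 3-4 in CPM. H2AX was at 160.2 and 185 CPM in siCTCF, H3-3A at 121 and 117, H1-10 at 34.7 and 36.7, and H2AJ at 35.3 and 52.7. For all 4 genes these ranges overlapped with ICM 3-4. MACROH2A2 was at 4.03 and 0.560 CPM, beside 5.56 and 1.22 in ICM 3-4, and in both groups the replicates differed more than the groups did. Over all genes ICM 3 stood nearer to siCTCF 1 than to ICM 4, and ICM 4 nearer to siCTCF 2, though no label pairs them. Read in those pairs, MACROH2A2 was lower in siCTCF both times, H3-3B and H2AZ1 were higher both times, and the other members went either way. The fit leaves such a pairing out. Against ICM 3-4 edgeR called 0 of 9 members and 0 genes (0.0%), with 125 genes and no member at an unadjusted p under 0.05, and DESeq2 called 0 genes. CTCF itself was thus called by neither method. As in siHMGB2, a fit that misses the targeted gene cannot show that the members were unchanged. The fitted changes ran from -0.57 for MACROH2A2 to 0.07 for H3-3A. Without overlap, 1 member was higher (7.52% of all genes), H2AZ1 at 140.3 and 153 CPM, and 0 were lower (9.55% of all genes).

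Genes that put H3 in place were followed from lists chosen by function. Of 5 tested genes of replication-coupled H3 deposition, 3 fell and 0 rose in ICM 1-2 against WT, and 2 fell and 1 rose in ICM 3-4. Of all genes, 6.87% fell and 6.63% rose in ICM 1-2, and 16% fell and 14.3% rose in ICM 3-4. NASP, a chaperone of soluble H3 and H4, was at 109 and 98.1 CPM in WT, 17.5 and 27.1 in ICM 1-2, and 43.0 and 47.0 in ICM 3-4. Its log2 fold change was -2.36 in ICM 1-2 (adjusted p = 0.000352, edgeR) and -1.44 in ICM 3-4 (adjusted p = 0.00219, edgeR), and with ICM 1-2 and WT alone the adjusted p was 0.0734. CHAF1B, a subunit of the chromatin assembly factor CAF-1, fell by 1.82 on the log2 scale in ICM 1-2 (adjusted p = 0.0448, edgeR) and by 2.23 in ICM 3-4 (adjusted p = 0.0136, edgeR). Leaving out WT 1, WT 2 or ICM 2 ended the first of these CHAF1B calls (highest adjusted p = 0.176), and leaving out WT 2, ICM 3 or ICM 4 ended the second (highest adjusted p = 0.0788).

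Of 8 genes of H3.3 deposition, 0 passed in ICM 1-2 against WT (median log2 fold change -0.22) and 3 fell and 1 rose in ICM 3-4 (median -0.43). Over all genes tested, 13.5% were called in ICM 1-2 and 30.3% in ICM 3-4 (16% lower, 14.3% higher). HIRA, the scaffold of the complex that deposits H3.3 at genes, was at 42.0 and 42.2 CPM in WT, 37.2 and 39.1 in ICM 1-2, and 61.1 and 54.1 in ICM 3-4. ATRX, which works with DAXX at repeats, was at 127 and 143 CPM in WT, 164 and 122 in ICM 1-2, and 39.7 and 76.4 in ICM 3-4. In the second set ATRX fell by 1.48 (adjusted p = 0.0131, edgeR) and DAXX by 1.63 (adjusted p = 0.0275, edgeR) on the log2 scale. The ATRX call ended without WT 2 or ICM 3 (highest adjusted p = 0.0877), and the DAXX call, on a gene at 1.21 to 4.17 CPM in these libraries, ended without any single library of WT 1, WT 2, ICM 3 and ICM 4 (adjusted p 0.0577 to 0.148).

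Genes of the H2A.Z exchange machinery and of the signalling around H2AX were counted against the 13.5% of all genes called in ICM 1-2 and the 30.3% called in ICM 3-4. Of 16 exchange genes, 0 rose and 1 fell in ICM 1-2, and 1 rose and 1 fell in ICM 3-4. ANP32E, a chaperone that removes H2A.Z, fell by 1.27 on the log2 scale in ICM 1-2 (adjusted p = 0.0261, edgeR), a call that ended without WT 1, WT 2 or ICM 1 (highest adjusted p = 0.115). In the second set EPC1, a subunit of the NuA4 complex, had a log2 fold change of 1.42 (adjusted p = 0.0154, edgeR) and YEATS4, shared by the exchange complexes, of -1.10 (adjusted p = 0.0264, edgeR). The EPC1 call ended without WT 1, WT 2 or ICM 4 and the YEATS4 call without any of WT 1, WT 2, ICM 3 and ICM 4, and YEATS4 also missed with scaling by total counts (-0.86, adjusted p = 0.085) or no filter (adjusted p = 0.101). Of 12 genes of H2AX signalling, 1 rose and 0 fell in ICM 1-2, and 3 rose and 1 fell in ICM 3-4. ATR, a kinase that phosphorylates H2AX, had a log2 fold change of 1.23 in ICM 1-2 (adjusted p = 0.0268, edgeR), a call that ended without WT 1, WT 2 or ICM 2 (highest adjusted p = 0.147). In the second set PPM1D, a phosphatase that acts on phosphorylated H2AX, had a log2 fold change of 1.54 (adjusted p = 0.0426, edgeR), and leaving out any of WT 1, WT 2, ICM 3 and ICM 4 gave an adjusted p of 0.0872 to 0.175. RNF168, a ubiquitin ligase that acts on H2A-type histones at breaks, had 1.22 there (adjusted p = 0.0145, edgeR), a call that ended without WT 1, WT 2 or ICM 4 (highest adjusted p = 0.0946). In siHMGB2, siSRRM2, siBANF1 and siCTCF, 0 genes of these deposition, exchange and signalling lists passed.

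Other histone genes give the setting of these levels. Of 57 replication-dependent histone genes tested, 44 rose and 0 fell in ICM 1-2 against WT (median log2 fold change 4.91, or 4.86 with genes without counts at their bound), and 30 rose and 0 fell in ICM 3-4 (median 2.94, or 2.59 at the bound). Of 10 cycling genes, 7 fell and 0 rose in either set. Among all genes, 6.63% rose and 6.87% fell in ICM 1-2, against 14.3% and 16% in ICM 3-4. CDK1, the mitotic kinase, was at 18.1 and 17.4 CPM in WT, 0.225 and 0.203 in ICM 1-2, and 0.0418 and 0.197 in ICM 3-4. Of 9 other variant histone genes, 4 had enough counts to be tested. CENPA, the H3 of centromeres, was at 3.19 and 2.94 CPM in WT, 0.184 and 0.719 in ICM 1-2, and 0.795 and 1.30 in ICM 3-4. Its log2 fold change was -2.92 in ICM 1-2 (adjusted p = 0.0455, edgeR), a call that ended without WT 1, WT 2 or ICM 1 (highest adjusted p = 0.154). H3-5, an H3.3-like gene, had a log2 fold change of 2.73 in ICM 3-4 (adjusted p = 0.0161, edgeR) at 0.149 and 0.165 CPM in WT and 1.38 and 1.10 in ICM 3-4, and that call ended without WT 1, WT 2 or ICM 3 (highest adjusted p = 0.0904). H4-16, an H4 gene outside the clusters, was at 0.0298 and 0.0823 CPM in WT, 13.5 and 6.89 in ICM 1-2, and 1.05 and 1.89 in ICM 3-4. The replication-dependent genes summed to 781 CPM in ICM 1, with a small RNA share of 6.06%, and to 1495 CPM in ICM 2, with 3.19%. In ICM 3-4 their rise was present with a small RNA share of at most 0.0083%, as in WT. The part of library composition in this rise was not tested.

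Over the 14 libraries, other genes tracked individual members closely. The search took 8872 genes, the protein-coding genes other than the members whose mean CPM reached 10. It used Pearson's r of log2(CPM + 1), described without a p, since libraries of a group share their treatment and composition. The closest gene to H1-10 was RPL29 (r = 0.980), a ribosomal protein gene, to MACROH2A2 it was TUBA1A (0.985), a tubulin gene, and to H3-3A it was HNRNPA0 (0.980), an RNA-binding protein gene. The closest to H3-3B was PRMT3 (0.973), to H2AX ZC3H18 (0.992), to H2AZ1 MRFAP1 (0.977), to H2AZ2 SMIM10L1 (0.943), to H2AJ PINK1 (0.964) and to MACROH2A1 RGS17 (0.956). Among the members, H2AX and H2AZ1 had an r of 0.889, H2AZ1 and H2AZ2 of 0.832, and H1-10 and MACROH2A2 of 0.800. H3-3A and H3-3B had an r of -0.285, and H2AX and MACROH2A1 of -0.751.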

How the data were processed

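The data are read counts of genes in 14 RNA-seq libraries of IMR90 cells. Per the labels' protocols, total RNA was extracted from a Trizol lysate with DNase treatment, made into TruSeq libraries and sequenced from both ends. The authors deposited raw counts, whole reads for every gene symbol, in a separate file for each of the libraries. The submitters' processing notes name STAR 2.7.3a, HTSeq 0.12.4, DESeq2 1.36.0 and the build hg38, and the annotation release and strand setting are not given in the sources used here. Lines for reads given to no gene (12.8% to 41.8% of a library) were left out.

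The members and gene lists were chosen with earlier results of these data known. CPM used unadjusted totals. Counts were scaled by TMM, kept by filterByExpr (19126 genes) and tested with the quasi-likelihood test of edgeR 4.0.16 (R 4.3.3) in a single fit of 7 group means, which left 7 residual degrees of freedom. Calls used an adjusted p (Benjamini-Hochberg, over all genes tested) under 0.05, and SE is that of the log2 fold change. The fit was tested on simulated data. ICM was divided into replicates 1-2 and 3-4 from the form of the labels, and each knockdown was compared with the ICM set labelled in its form.

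The rule for named genes took all 9 members and, from each list, at most the 2 called genes with the largest change per comparison. From the replication-dependent, cycling and marker lists mostly counts and sums are given, and HIRA was added after its values were seen. A gene of the other variant histone list is not reported here. Promoters came from RefSeq (GRCh38.p14) and coding sequences and lengths from GENCODE v29. Protein sequences were not used here. Alternatives were relative log expression or total-count scaling, no low-count filter, protein-coding genes only, fits of the compared libraries only, a replicate block, DESeq2 1.42.0 and leaving out each library. A crossed block and the second gene length were chosen after seeing the data. Python 3.11.15 with pandas 2.3.3, numpy 2.4.6 and matplotlib 3.10.9 was used for the rest.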

Additional observations from a re-analysis of the deposited data

Results flagged for a closer look

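For H2AX the change from WT differed between the ICM sets. The log2 fold change of ICM 3-4 over ICM 1-2 was 2.43 (adjusted p = 0.0199, edgeR), with both ICM 3-4 libraries above both ICM 1-2 libraries. For H3-3A the change from WT also differed between the sets, and ICM 3-4 stood 1.45 above ICM 1-2 on the log2 scale (adjusted p = 0.00348, edgeR), again without overlap. Sets and cultures cannot be told apart, and the part of the library composition, which differed between the sets, was not tested. The groups of 2 libraries were too small for a test of single outlying samples.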

How the results depend on the processing

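Counts of called members are given with the share of all genes called by the same fit. In ICM 1-2 against WT the count was 2 with all libraries (13.5%), 4 with no low-count filter (11.5%), 0 with the compared libraries only (0.173%), 3 with the crossed replicate block (8.05%) and 2 to 3 when a library was left out (2.85% to 18.9%). In ICM 3-4 against WT it was 4 (30.3%), and 5 with no filter (19.6%), 6 with the compared libraries only (47%), 5 with DESeq2 (38.1%) and 1 to 3 when a library was left out (10% to 13.6%). Between the sets it was 2 (19.5%), and 0 with the compared libraries only (1.25%), 3 with no filter (14.6%) or DESeq2 (28.5%) and 1 to 4 when a library was left out (6.31% to 31.7%). The replicate block left 2 members called in ICM 1-2 against WT, of 1445 genes, against 2582 without it and 545 to 3612 with a library left out. Same-numbered libraries correlated at 0.16 for WT and siHMGB2, -0.25 for WT and ICM, 0.12 for ICM and siSRRM2 and 0.87 for ICM and siBANF1. No label ties the numbers to a shared batch, and 2 pairs a comparison cannot settle whether they pair the samples. With the block, siBANF1 against ICM 1-2 called 1 gene and 0 members, MACROH2A1 at 0.24 (adjusted p = 0.865) and MACROH2A2 at -0.32 (adjusted p = 0.843). For siCTCF no paired analysis was run, because it shares no replicate numbers with ICM 3-4 and no label pairs the libraries. Per gene, ICM 3 stood nearer to siCTCF 1 (median chi-square of 2.68) than to ICM 4 (10.08). ICM 4 likewise stood nearer to siCTCF 2 (1.75), while siCTCF 1 and 2 were 7.73 apart. The siCTCF comparison leaves any such pairing out. The crossed block called 1540 genes, with MACROH2A2 at -1.54 (adjusted p = 0.0472).

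Over all genes, fits of the compared libraries only called 2055 in siHMGB2 (2293 with the block) against 0, and 0 in siSRRM2 against 34 (1 by total counts, 103 with the block). By total counts the all-gene median on the log2 scale went from 0.10 to 0.24 in ICM 1-2 and from -0.02 to 0.18 in ICM 3-4, where 3448 higher and 2449 lower calls replaced 2732 and 3065.

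Signs changed in results that were not called. H2AX in siSRRM2 was 0.22 with the block. In ICM 3-4 against WT, H2AZ1 was 0.17 by total counts and 0.0227 with protein-coding genes, H2AZ2 was 0.0291 by relative log expression, 0.23 by total counts, 0.0819 with protein-coding genes, 0.0356 with the compared libraries only and 0.0291 with DESeq2, and H3-3B was 0.0861 by total counts. H3-3B in ICM 1-2 was -0.0459 with the block and -0.0460 with the crossed block. Leaving out a library gave ranges of -0.85 to 0.65 for H3-3B in ICM 1-2, -0.19 to 0.0626 for H2AZ1 and -0.0995 to 0.0866 for H2AZ2 in ICM 3-4, -0.0726 to 0.43 for H2AJ and -0.80 to 0.69 for H3-3B between the sets, -0.81 to 1.23 for H2AX in siSRRM2, -0.60 to 0.00458 for MACROH2A2 in siBANF1, and -2.68 to 0.99 for MACROH2A2 and -0.12 to 0.27 for H3-3A in siCTCF. Where no value shows a cause, the cause was not tested.

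Groups of 2 libraries and 7 residual degrees of freedom limit the precision of every comparison, and counting error adds to it for MACROH2A2 at 1.22 CPM in ICM 4. The single fit also shares its spread over groups whose replicates lay unequally far apart. The median chi-square per gene was 50.82 between ICM 1 and 2 and 49.03 within siBANF1, against 3.13 within WT, 5.57 within siHMGB2 and 1.11 within siSRRM2. An SE of that fit is thus not the spread of the compared groups alone.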
